A study of Mus musculus with 2 samples.

Results

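The genes Fos, Fosb, Jun, Junb, Atf3, Egr1, Nr4a1, Ier2 and Socs3 are immediate early genes, and they were taken by symbol from a single-cell RNA data set of the embryonic mouse midline. All 9 symbols matched exactly 1 each of the 32285 gene features, so 9 of 32285 genes are described. The tissue was the corticoseptal boundary of E16.5 embryos, cut out of brain slices and digested in an enzyme solution for 15 min at 37 °C before single cells were captured. There was 1 library from wild-type embryos (WT) and 1 from Tcf4f/f;Emx1Cre embryos (Tcf4_cKO, here cKO). In the cKO the floxed alleles of Tcf4, a basic helix-loop-helix transcription factor, are removed by Cre under the control of Emx1, which acts in progenitors of the dorsal telencephalon and their descendants. Microglia, vascular cells and most GABAergic neurons come from other lineages. The labels do not give the number of embryos in a library, their sex or the date of preparation. With 1 library per genotype no test between genotypes exists, so every interval below covers counting error only, and genotype, embryos, dissection and library preparation cannot be told apart.

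Immediate early genes are transcribed from factors that a cell already holds, before any new protein is made, and their transcripts are short-lived. MAP kinase signals reach them through SRF and ELK factors at the CArG box, calcium and cyclic AMP through CREB at the cyclic AMP response element (CRE), and cytokines through STAT3. Fos and Fosb encode proteins that pair with Jun proteins to form the AP-1 transcription factor, whereas Atf3 encodes a related leucine zipper protein that responds to stress. Egr1 encodes a zinc finger factor, Nr4a1 an orphan nuclear receptor, Ier2 a small nuclear protein, and Socs3 a feedback inhibitor of cytokine signalling through STAT3. Tissue dissociation is itself known to switch these genes on. Its part in any value below was not tested, since both libraries were dissociated and no undissociated sample was analysed here.

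The promoters of 5 members are shown because such signals reach a gene through short elements near its start. RefSeq promoters (GRCm38.p6), from 250 bases before the annotated start to 50 bases from it on, were matched by symbol for 7 of the 9 members. No promoter of Egr1 or Ier2 was searched, so the counts below do not cover these genes. The 7 promoters were searched on both strands for the CRE TGACGTCA, its first 5 letters TGACG (short CRE, which lies inside a full CRE), the AP-1 site TGANTCA, the CArG box, the STAT site TTCNNNGAA, the EGR site GCGNGGGCG and the TATA box TATAAA. Matches are in capitals, written 5′ to 3′ on the gene's strand, so that a match to the other strand appears as its reverse complement. 
Fos: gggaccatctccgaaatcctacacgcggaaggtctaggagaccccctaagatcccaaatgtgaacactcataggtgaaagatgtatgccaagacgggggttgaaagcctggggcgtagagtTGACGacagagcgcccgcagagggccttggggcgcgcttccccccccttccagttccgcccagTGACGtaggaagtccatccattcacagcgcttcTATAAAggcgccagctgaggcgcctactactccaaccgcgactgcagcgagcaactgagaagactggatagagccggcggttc 
Junb: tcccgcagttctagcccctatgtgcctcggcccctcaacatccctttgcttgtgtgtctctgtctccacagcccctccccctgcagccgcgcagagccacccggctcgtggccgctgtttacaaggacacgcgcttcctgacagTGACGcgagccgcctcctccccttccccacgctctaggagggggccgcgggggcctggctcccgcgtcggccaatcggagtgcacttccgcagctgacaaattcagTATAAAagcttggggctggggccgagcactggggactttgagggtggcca 
Atf3: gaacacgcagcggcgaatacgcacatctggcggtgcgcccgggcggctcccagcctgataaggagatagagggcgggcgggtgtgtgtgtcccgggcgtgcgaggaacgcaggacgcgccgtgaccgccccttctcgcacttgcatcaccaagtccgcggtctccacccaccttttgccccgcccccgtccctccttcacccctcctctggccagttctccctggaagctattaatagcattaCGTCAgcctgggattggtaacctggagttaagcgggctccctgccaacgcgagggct 
Nr4a1: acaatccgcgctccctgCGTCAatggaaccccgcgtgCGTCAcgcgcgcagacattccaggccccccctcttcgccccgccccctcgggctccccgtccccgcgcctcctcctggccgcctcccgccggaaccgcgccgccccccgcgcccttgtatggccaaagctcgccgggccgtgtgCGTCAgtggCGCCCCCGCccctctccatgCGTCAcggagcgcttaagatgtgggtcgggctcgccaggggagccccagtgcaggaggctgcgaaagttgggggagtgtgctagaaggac 
Socs3: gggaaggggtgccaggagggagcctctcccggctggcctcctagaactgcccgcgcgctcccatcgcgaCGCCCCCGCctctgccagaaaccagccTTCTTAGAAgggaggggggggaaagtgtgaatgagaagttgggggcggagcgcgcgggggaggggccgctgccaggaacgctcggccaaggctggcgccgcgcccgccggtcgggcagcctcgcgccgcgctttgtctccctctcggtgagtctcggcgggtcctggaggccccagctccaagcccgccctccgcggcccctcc

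The Fos window lies at chr12:85473640-85473939 on the plus strand, Junb at chr8:84978699-84978998 on the minus strand, Atf3 at chr1:191183284-191183583 on the minus strand, Nr4a1 at chr15:101266596-101266895 on the plus strand and Socs3 at chr11:117969317-117969616 on the minus strand. The windows of Atf3, Nr4a1 and Socs3 lie inside the gene spans given below and not at their beginnings. Only 1 start per gene was searched, so other starts of these genes are not covered. The short CRE was found in 5 of the 7 windows, those of Fos, Fosb, Junb, Atf3 and Nr4a1, against 20.8% of all 32851 promoters of the same length. Nr4a1 held 4 matches and Fos 2, one of which starts 66 bases before the annotated start of Fos. The EGR site was found in 3 windows, those of Fosb, Nr4a1 and Socs3, against 5.55% of all promoters, and the TATA box in those of Fos and Junb, against 13.6%. The TATA box match begins 33 bases before the RefSeq start in Fos, but on the RefSeq start itself in Junb. The Junb gene span given below begins inside this window, downstream of the RefSeq start. The place of the Junb match relative to the start therefore depends on the annotation used. The STAT site, whose pattern is its own reverse complement, was found in 1 window, that of Socs3 (8.30% of all promoters). No window held the full CRE (1.79% of all), the AP-1 site (7.81%) or the CArG box (1.63%), which says only that these letters are not in these windows.

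The deposited matrices held 116998498 UMIs (unique molecular identifiers, 1 per captured transcript) in WT and 121321247 in cKO. Cells numbered 8634 in WT with a median of 9660 UMIs and 10142 in cKO with a median of 8152 UMIs, and 21 cell barcodes occurred in both libraries. The median share of mitochondrial UMIs was 2.80% and 3.19%. Cells fell into 35 clusters, formed without the members and the related early and stress genes. Fixed marker genes gave 26 clusters a class name, and 17.4% of WT and 22.4% of cKO cells stayed in unnamed clusters. Class names are short for cells that carry those markers, and microglia stands for microglia or macrophages. Free RNA, read from droplets of 10 to 100 UMIs, held the 9 genes at 1000 CPM in WT (1 CPM is 1 UMI in 1000000) and 865 CPM in cKO, and made up an estimated 2.26% and 1.22% of a neuron's UMIs. It would thus add 6.92 and 3.41 CPM of Fos, but 0.354 and 0.150 CPM of Atf3, to a neuron. Tcf4 itself was at 2738 CPM in WT against 1616 CPM in cKO in intermediate progenitors (ratio 0.590, 0.575 to 0.605) and at 950 against 868 CPM in astroglia (0.913); whether its counted reads lie outside the deleted part is not given in the sources used here.

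Over all cells, 8 of the 9 members were lower in cKO with intervals that lay below 1, and Fosb was higher. Of the 17529 genes tested, 60.4% also had a log2 ratio below 0. The median log2 ratio was -0.23 for the members and -0.02 for all genes. The share of all genes with intervals below 1 is not given here, and genes with many UMIs have narrow intervals. None of the 9 passed 1.5-fold, against 0.394% of 17529 genes that were at least 1.5-fold lower and 0.262% that were at least 1.5-fold higher (log2 ratio with 5 CPM added, genes with at least 20 UMIs). Fos stood at 531 CPM in WT against 410 CPM in cKO, a ratio of 0.771 (95% interval 0.761 to 0.782). Egr1 stood at 201 and 143 CPM, a ratio of 0.712 (0.696 to 0.728), the lowest of the 9. Jun was closer, at 313 and 285 CPM, and Fosb was higher in cKO, at 58.4 and 65.2 CPM, a ratio of 1.12. Unnamed clusters held 13.09% of the Fosb UMIs in WT but 31.05% in cKO, from 19.14% and 25.5% of all UMIs. Among these clusters, cluster 9 held 8 WT and 850 cKO cells. The part of the unnamed clusters in the Fosb ratio was not tested. The cKO library was also the shallower per cell and had the higher mitochondrial share; the part of either in these ratios was not tested.

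The levels differed far more between cell classes than between the libraries. The summed level of the 9 genes was 13995 CPM in WT and 10354 in cKO in microglia, 3734 and 3368 CPM in vascular cells, and 2240 and 1592 CPM in astroglia. The lowest sums were those of glutamatergic neurons, at 781 and 650 CPM, and GABAergic neurons, at 918 and 845 CPM. Microglia were thus at the top of the order in both libraries and vascular cells came next. In WT, of the 9 pairs of neighbours in the order, the intervals of 1 pair overlapped (Cajal-Retzius cells and oligodendrocyte progenitors); in cKO those of 3 pairs did. One by one, 8 of the 9 members had their highest class value in microglia in both libraries. Socs3 was the exception, with oligodendrocyte progenitors first in WT at 71.5 CPM and microglia next at 61.9 CPM, 2 values whose intervals overlapped.

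**Figure D1:**
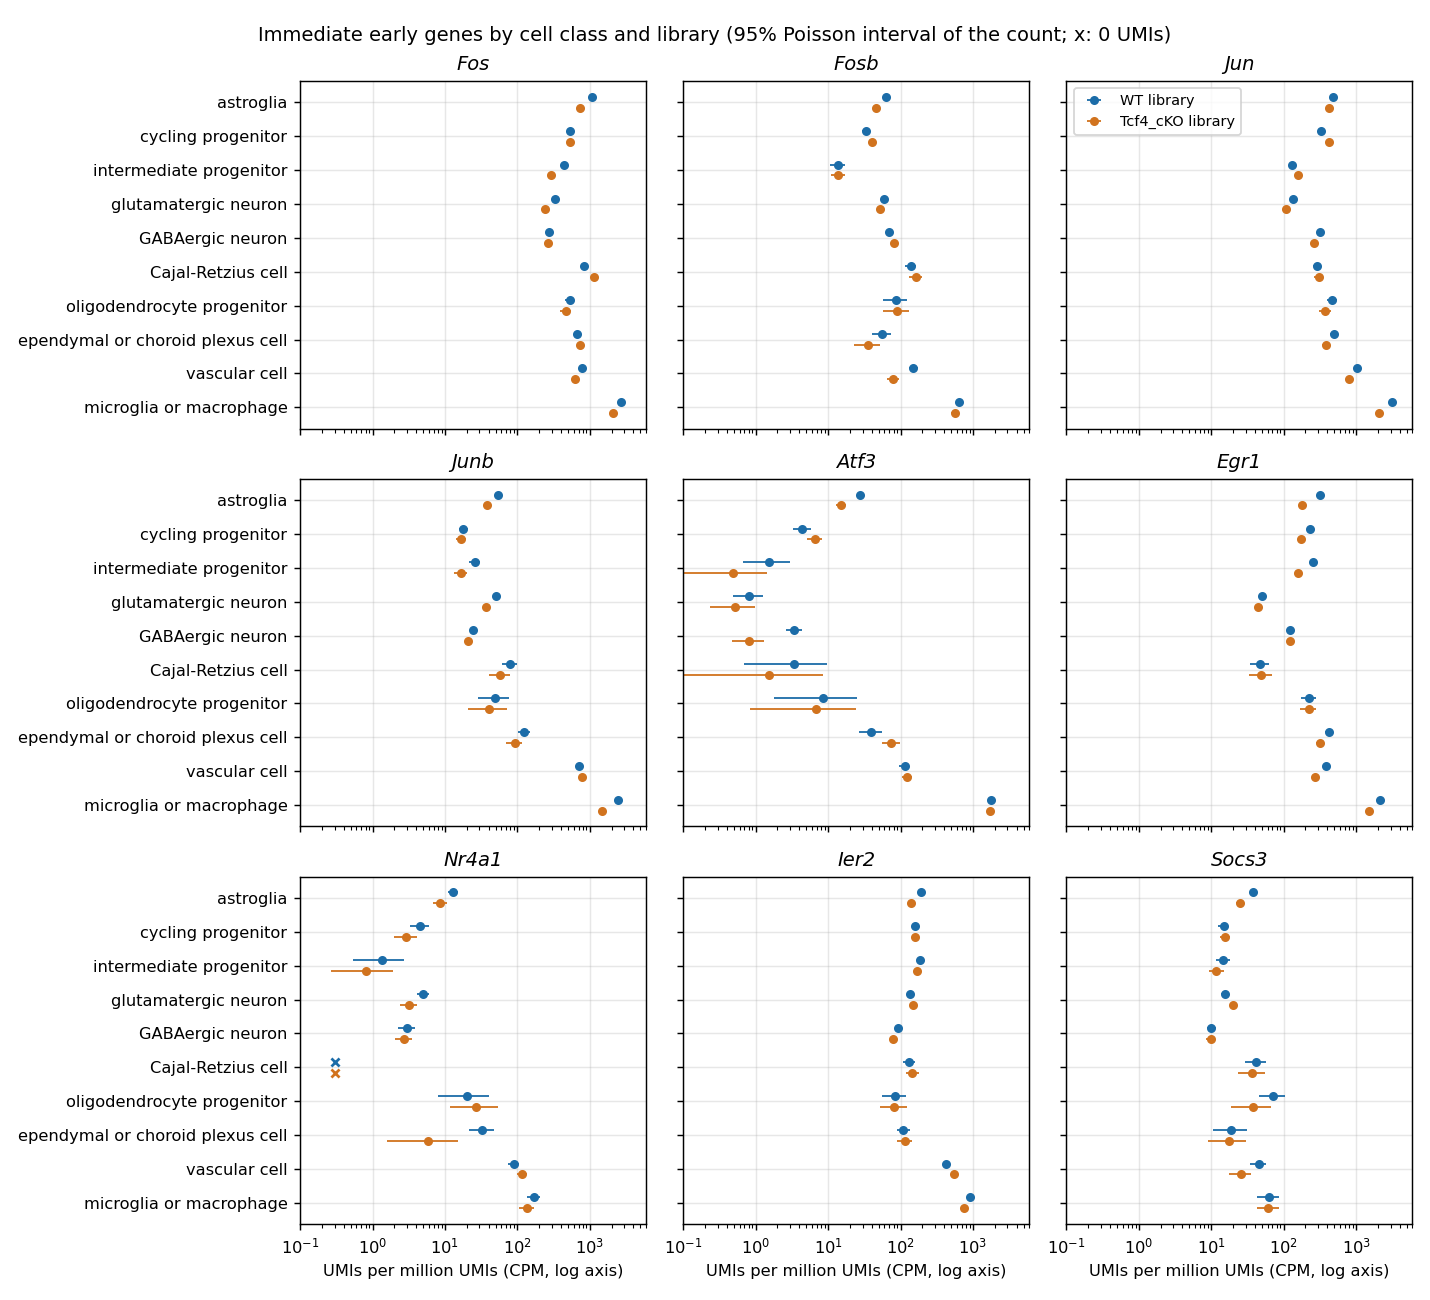
Level of each gene in 10 cell classes (CPM on a log axis), WT in blue and cKO in orange, with 95% Poisson intervals of the counts; crosses mark classes with 0 UMIs, drawn at an arbitrary place. Microglia lie at the right of nearly every panel, with Atf3 at 1756 and 1710 CPM against under 4 CPM in both neuron classes.

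Among the AP-1 genes, Fos (chr12:85473890-85477273, 4 exons) was present in every class. In WT its level ran from 276 CPM in GABAergic neurons, 327 in glutamatergic neurons, 444 in intermediate progenitors and 533 in cycling progenitors to 1057 CPM in astroglia and 2716 CPM in microglia. The cKO order began with glutamatergic neurons (238 CPM) and GABAergic neurons (268 CPM) and again ended with microglia (2067 CPM). Cajal-Retzius cells, the reelin-making neurons of the cortical surface, stood out among neurons, with 819 CPM in WT against 1159 CPM in cKO. After each cell was thinned to 3000 UMIs, Fos was detected in 59.9% of WT and 50.7% of cKO astroglia and in 44.9% and 40.5% of GABAergic neurons.

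Fosb (chr7:19302696-19310051), the paralogue of Fos, had another order below microglia. Its level was 68.6 CPM in WT against 81.1 CPM in cKO in GABAergic neurons, 60.0 and 51.8 CPM in glutamatergic neurons, and 62.2 and 46.2 CPM in astroglia, so that glia did not lie above neurons. Intermediate progenitors had the least, at 13.8 CPM in WT against 13.7 CPM in cKO. In WT, 6 of the 9 neighbouring pairs in the order of Fosb had overlapping intervals, against 3 for Fos.

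Jun (chr4:95049034-95052222, a gene of 1 exon) and Junb (chr8:84974484-84978718, also 1 exon) encode the partners of Fos in AP-1. Jun was at 482 CPM in WT against 416 CPM in cKO in astroglia, at 317 and 261 CPM in GABAergic neurons, and at 136 and 108 CPM in glutamatergic neurons. Within neurons Jun was therefore higher in the GABAergic class, while Junb was higher in the glutamatergic class, at 51.4 and 36.8 CPM against 24.1 and 21.1 CPM. Junb was highest in the sparse classes: microglia held it at 2433 and 1482 CPM and vascular cells at 708 and 783 CPM, whereas astroglia had 53.9 and 38.0 CPM. Jun overlaps the antisense gene Junos and Junb overlaps Prdx2 on the other strand. Whether the counting used strand is not given in the sources used here, so that reads of these pairs may not be told apart.

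Atf3 (chr1:191170296-191218039) was the member most concentrated in 1 class. Microglia made up 0.591% of WT and 0.552% of cKO cells, yet they held 51.8% and 62.1% of all Atf3 UMIs in cells. Their level was 1756 CPM in WT against 1710 CPM in cKO. Vascular cells followed at 114 and 124 CPM, cells of the ependymal or choroid plexus class at 39.2 and 74.4 CPM and astroglia at 27.5 and 15.0 CPM. Glutamatergic neurons had 0.810 and 0.515 CPM, where free RNA alone would add 0.354 and 0.150 CPM. Intermediate progenitors had 1.53 CPM in WT against 0.491 CPM in cKO, from 8 UMIs in 537 cells and 3 UMIs in 762 cells.

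Egr1 was at 313 CPM in WT against 178 CPM in cKO in astroglia, 258 and 158 CPM in intermediate progenitors and 233 and 173 CPM in cycling progenitors. Neurons were lower, with 122 CPM in both libraries in GABAergic neurons, 50.3 and 44.3 CPM in glutamatergic neurons, and 47.0 and 48.8 CPM in Cajal-Retzius cells. Cajal-Retzius cells thus combined a high level of Fos with the level of Egr1 seen in glutamatergic neurons: in WT, their Egr1 interval overlapped that of glutamatergic neurons, while their Fos interval did not.

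Nr4a1 (chr15:101254269-101274795) was highest outside the neural lineage, at 168 CPM in WT against 136 CPM in cKO in microglia and at 89.3 and 116 CPM in vascular cells. Astroglia had 13.0 and 8.61 CPM, both neuron classes were between 2.71 and 5.04 CPM, and Cajal-Retzius cells had 0 UMIs in both libraries. Ier2 (chr8:84661331-84662852, 1 exon) had the smallest ratio of highest to lowest level among the 5 large classes. It ranged over the 5 large classes from 93.6 CPM in GABAergic neurons to 193 CPM in astroglia in WT, and from 78.4 CPM in GABAergic neurons to 167 CPM in intermediate progenitors in cKO. Socs3 (chr11:117966079-117970047) stood at 38.0 and 24.9 CPM in astroglia and at 9.96 and 9.90 CPM in GABAergic neurons. Neighbouring intervals of Socs3 overlapped for 9 of 9 pairs in cKO, so its order there rests on few UMIs.

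Microglia carried these transcripts as a set, and most of their cells carried several at a time. After thinning, 78.4% of 51 WT and 64.3% of 56 cKO cells in the microglial cluster had UMIs of 5 or more of the 9 genes, against 11.9% and 5.88% of astroglia and 1.44% and 0.868% of glutamatergic neurons. At the other end, 15.7% and 16.1% of the cells in the microglial cluster had none. The leading genes of that cluster included the complement genes C1qa, C1qb and C1qc and the genes of the chemokines Ccl3 and Ccl4, which activated microglia secrete. Not all of its cells carried the markers: in 10 WT and 12 cKO cells the UMIs of the 8 microglial markers did not exceed those of Tubb3, a neuronal tubulin, and in WT these cells had 0 marker UMIs. In such cells the 9 genes summed to 166 CPM in WT against 454 CPM in cKO, with medians of 4251 and 4350 UMIs per cell. In the other 41 WT and 44 cKO cells they summed to 15107 and 11561 CPM.

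**Figure D2:**
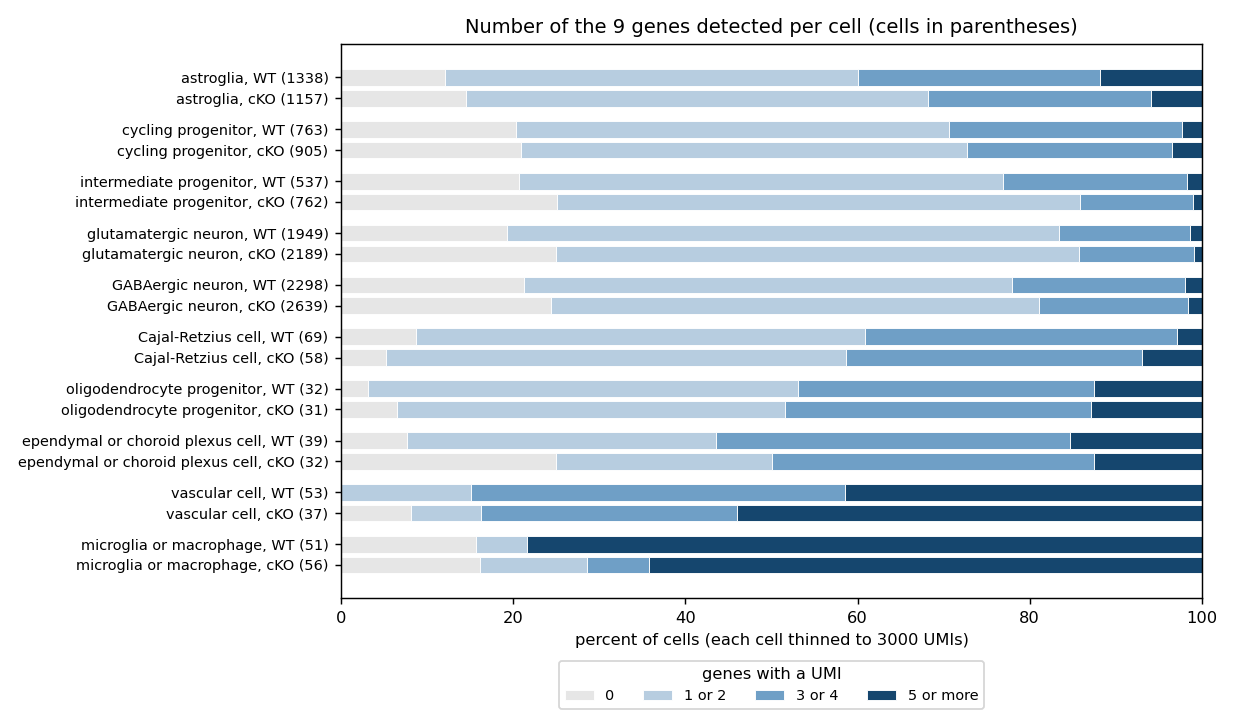
Percent of cells with UMIs of 0, 1 or 2, 3 or 4, and 5 or more of the 9 genes after thinning each cell to 3000 UMIs, by class and library, with the number of cells in parentheses. Microglia and vascular cells have the largest dark segments (5 or more), 78.4% and 64.3% in microglia, and glutamatergic neurons, GABAergic neurons and intermediate progenitors have the 3 smallest in each library.

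The microglial values were lower in cKO for some members and close to equal for others. In the cells whose markers exceeded Tubb3, Jun was at 3412 CPM in WT against 2339 CPM in cKO, a ratio of 0.685 (0.636 to 0.738). Junb was at 2629 and 1661 CPM, a ratio of 0.632 (0.579 to 0.689), and Egr1 was at 2296 and 1671 CPM, a ratio of 0.728 (0.666 to 0.795). The interval of Atf3 included 1, at 1897 and 1912 CPM (ratio 1.01, 0.922 to 1.10), as did those of Fosb (0.777 to 1.06), Nr4a1 (0.604 to 1.13) and Socs3 (0.628 to 1.70). The summed microglial markers were alike, at 15030 CPM in WT against 15236 CPM in cKO, while Tubb3, which served to pick these cells, was at 162 and 306 CPM (1.88, 1.44 to 2.49). In the whole cluster astroglial markers summed to 813.5 and 419 CPM and erythroid markers to 193 and 12044 CPM, and median depth was 9337 and 7898 UMIs; their part was not tested. The cells compared here are 41 against 44, from 1 library each, and the choice of cells was made after the values were seen.

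Vascular cells, a cluster with endothelial and mural and, at a lower level, fibroblast markers, had members on both sides of 1. Ier2 was at 426 CPM in WT against 543 CPM in cKO (ratio 1.28, 1.14 to 1.43), and Nr4a1 at 89.3 and 116 CPM (ratio 1.30, 1.01 to 1.67). Fosb was lower, at 150 and 79.4 CPM, a ratio of 0.527 (0.411 to 0.673), as was Socs3, at 45.0 and 25.4 CPM (ratio 0.564). The cluster held 53 WT and 37 cKO cells, with median depths of 17889 and 34022 UMIs, and its haemoglobin and other erythroid markers summed to 37268 and 64351 CPM. Its fibroblast markers summed to 1187 CPM in WT against 355.5 CPM in cKO, and its microglial markers to 31.7 and 1.59 CPM; the part of these values in these ratios was not tested.

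Together the sparse classes weigh on any value taken over all cells. Microglia and vascular cells held 23.8% and 16.6% of the Junb UMIs in WT and 17.5% and 20.5% in cKO, and 12.2% and 15.5% of the Nr4a1 UMIs in WT and 12.1% and 22.9% in cKO. For Fos the 2 classes held 3.12% and 2.18% in WT. Astroglia were the class that weighed most on Fos, with 28.4% of its UMIs in WT and 19.7% in cKO from 15.5% and 11.4% of cells.

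In astroglia all 9 members were lower in the cKO library, with 9 of 9 intervals below 1. Their median log2 ratio was -0.45, against -0.02 over the 13682 genes tested, of which 54.9% were below 0. Past 1.5-fold were 2 of the 9, both lower, where 1.19% of all genes tested were that much lower and 0.460% that much higher. Egr1 was at 313 and 178 CPM, a ratio of 0.569 (0.538 to 0.601). Atf3 was at 27.5 and 15.0 CPM, a ratio of 0.545 (0.448 to 0.659). Fos was just inside the fold, at 1057 and 724 CPM (0.685, 0.666 to 0.704), and Jun was closest to 1, at 482 and 416 CPM (0.863, 0.830 to 0.897). Socs3 (0.654, 0.560 to 0.761) and Nr4a1 (0.662, 0.507 to 0.860) were past 1.5-fold only before the 5 CPM were added. Microglial markers summed to 5.82 CPM in WT against 1.84 CPM in cKO astroglia, with Aif1 at 0 in cKO, fibroblast markers to 28.1 and 11.02 CPM, and erythroid markers to 1163 and 3579 CPM. Median depth was 9249 and 8120 UMIs, and the part of these values was not tested.

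**Figure D3:**
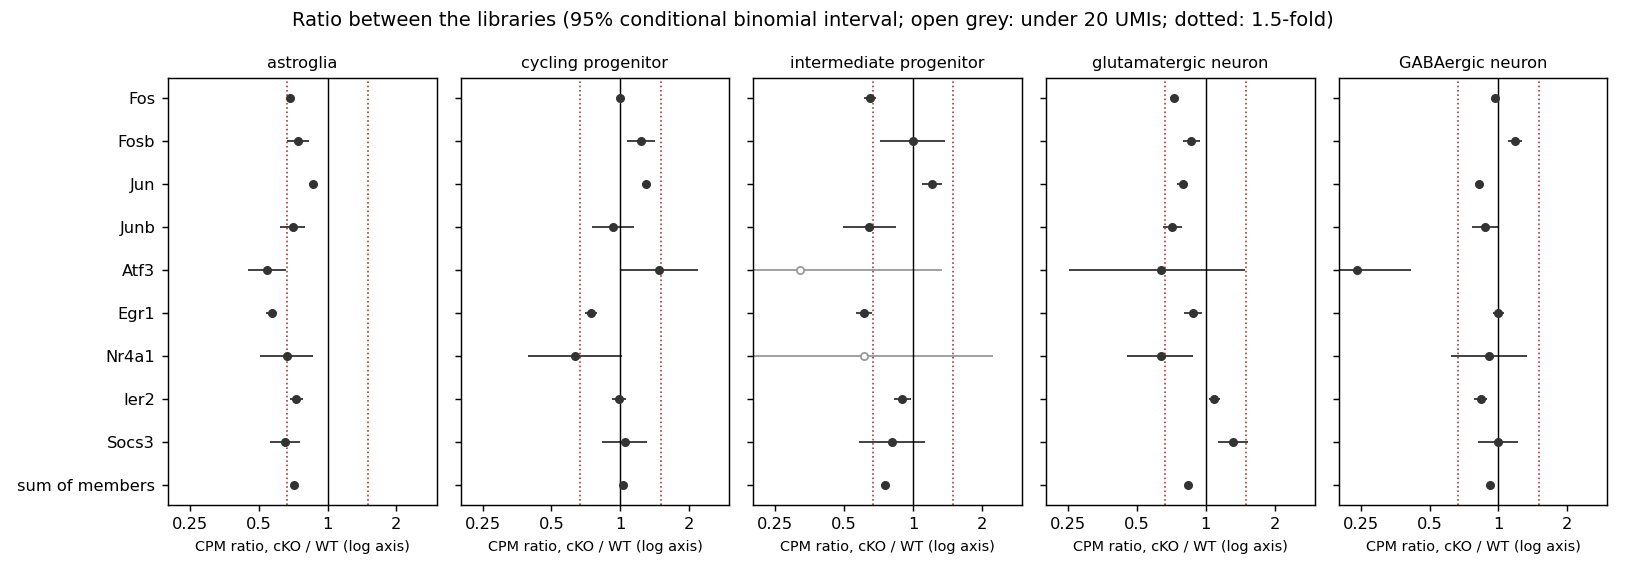
Ratio of cKO to WT for each gene and for their sum in the 5 classes with at least 100 cells in each library (log axis), with 95% conditional binomial intervals; the solid line marks 1, dotted lines 1.5-fold, and open grey points fewer than 20 UMIs. All points lie left of 1 in astroglia, where the sum is at 0.711, while those of GABAergic neurons lie around 1 except for Atf3 at 0.240. Ratios are drawn without the 5 CPM that the calls past 1.5-fold add, so points can lie past a dotted line without being counted.

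Part of the astroglial difference lay in the make-up of the class. One of the 4 astroglial clusters, cluster 22, was led by Fgf17, Igfbp5, Cnmd and Fgf8; Fgf8 and Fgf17 encode FGF ligands of the rostral telencephalic midline. It had the highest sum of the 4: its 9 genes summed to 3998 CPM in WT against 3189 CPM in cKO, and its Fos stood at 2055 and 1660 CPM. This cluster gave 304 of the 1338 WT but 121 of the 1157 cKO astroglia. Without it, a choice made after the values were seen, the summed level was 1707 CPM in WT against 1401 CPM in cKO, a ratio of 0.821 (0.802 to 0.840) in place of 0.711 (0.697 to 0.724).

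The members did not behave alike when that cluster was left out. Egr1 had a ratio of 0.659 (0.616 to 0.705), at 225 and 148 CPM, and was then the 1 member past 1.5-fold. The ratio of Fos was 0.812, at 754 and 612 CPM. Fosb was at 1.00, with 38.7 and 38.8 CPM, and Nr4a1 at 1.10 (0.753 to 1.60), with 5.81 and 6.39 CPM. The intervals of Junb and Socs3 then reached 1, at ratios of 0.858 and 0.840. In the 3 remaining clusters taken singly, Egr1 was at 0.602 in cluster 8 (led by Rspo1 and Aldh1l1) and 0.671 in cluster 13 (led by Hopx and Aldoc), but at 1.03 in cluster 18 (led by Creg2, Mt3 and Lxn), whose 9 genes summed to 822 CPM in WT against 829 CPM in cKO.

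Within astroglia the 9 genes were unevenly spread over the cells. The most loaded 5% of cells, ranked by summed UMIs, held 26.4% of the UMIs in WT and 28.8% in cKO. The per-cell sum had a median of 1056 CPM and a 90th percentile of 6018 CPM in WT, and of 869 and 3568 CPM in cKO, so the upper end differed more than the middle. With the UMIs of each gene capped at 3 per cell, the log2 ratio of the sum in astroglia was -0.16 in place of -0.49. In cluster 22 the medians were 2955 CPM in WT against 1737 CPM in cKO while the 90th percentiles were close, at 10291 and 9932 CPM.

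The same cells tended to hold several members. In WT astroglia, thinned, Fos was detected in 86.7% of the 480 cells with Egr1 and in 45.0% of the 858 without. It was detected in 92.9% of the 140 cells with Junb and in 56.1% of the rest. In cKO astroglia the Fos shares were 81.9% with and 39.5% without Egr1. Jun was coupled less: it was seen in 69.4% of WT astroglia with Egr1 and 57.6% of those without. In glutamatergic neurons the pairing was looser, with Fos in 66.2% of WT cells with Egr1 and 49.5% of those without, and with Jun in 21.6% of WT cells with Junb and 22.9% of those without, against 28.7% and 20.2% in cKO. These shares describe cells of 1 library each and are not tested.

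In cycling progenitors the summed level was 1331 CPM in WT against 1374 CPM in cKO (ratio 1.03). Fos was at 533 CPM in both libraries (ratio 0.999, 0.963 to 1.04), and Jun was higher in cKO, at 330 and 428 CPM (1.30, 1.24 to 1.36). Fosb too was higher, at 33.1 and 40.8 CPM (1.23, 1.07 to 1.42), as was Atf3, at 4.41 and 6.55 CPM (1.48, 1.01 to 2.19). Egr1 alone among the 9 had an interval below 1, at 233 and 173 CPM (0.743, 0.699 to 0.789). The intervals of Junb (0.930), Ier2 (0.987), Nr4a1 (0.637) and Socs3 (1.04) included 1. Nr4a1, at 4.51 and 2.87 CPM, stayed under 1.5-fold with 5 CPM added. None of the 9 passed 1.5-fold, and 0.283% of 12713 genes were that much lower and 0.275% that much higher. The class joins cluster 6, with Fos at 803 CPM in WT against 733 CPM in cKO, and cluster 10, led by Gsx2, with 112 and 80.1 CPM. Fos was thus lower in cKO within both clusters (0.914, 0.880 to 0.949, and 0.713, 0.611 to 0.830), while the class as a whole was level: cluster 6 gave 391 of 763 WT and 529 of 905 cKO cells. Egr1 was at 0.765 and 0.692 in the 2 clusters. Jun was at 1.26 (1.20 to 1.32) in cluster 6 and at 0.910 in cluster 10. In the class, erythroid markers summed to 1988 CPM in WT against 552.8 CPM in cKO and ependymal or choroid plexus markers to 348.9 and 54.4 CPM; their part was not tested.

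Intermediate progenitors, the Eomes-expressing precursors of glutamatergic neurons, had lower Fos and Egr1 in cKO and a higher Jun. Of the 7 members with at least 20 UMIs, 2 passed 1.5-fold, both lower, against 1.03% of 11322 genes lower and 0.671% higher. Fos was at 444 and 288 CPM (0.647, 0.608 to 0.689) and Egr1 was at 258 and 158 CPM (0.611, 0.562 to 0.664). Jun was at 129 and 156 CPM (1.21, 1.10 to 1.34). Junb was lower, at 25.6 and 16.52 CPM (0.644, 0.493 to 0.840), and stayed under 1.5-fold with 5 CPM added. Ier2 was at 186 and 167 CPM, and Fosb at 13.8 and 13.7 CPM. Socs3 was at 14.5 and 11.8 CPM (0.810, 0.578 to 1.13). Median depth was 9442 UMIs in WT and 7613 in cKO, erythroid markers summed to 1991 and 5264 CPM, and ependymal or choroid plexus markers to 503 and 69.7 CPM; their part was not tested.

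In glutamatergic neurons none of the 9 members passed 1.5-fold, although 2.07% of 13504 genes were that much lower and 1.49% that much higher, the largest shares of the 5 classes. Fos was at 327 CPM in WT against 238 CPM in cKO (0.728, 0.701 to 0.757), Jun at 136 and 108 CPM (0.792) and Junb at 51.4 and 36.8 CPM (0.716). Nr4a1 was at 5.04 and 3.21 CPM (0.636, 0.453 to 0.884), past 1.5-fold only before the 5 CPM were added. The same held for Atf3 (0.636, 0.252 to 1.49), whose interval included 1. Ier2 and Socs3 lay on the other side, Ier2 at 135 and 148 CPM (1.09, 1.03 to 1.15) and Socs3 at 15.4 and 20.2 CPM (1.31, 1.13 to 1.53). The libraries hardly shared clusters here: cluster 3 held 3 WT and 1024 cKO cells, cluster 7 held 882 and 4, and cluster 15 held 584 and 0. In the 2 clusters with at least 50 cells in each library, a choice made after the values were seen, Fos was alike at 271 and 262 CPM (0.967, 0.898 to 1.04). There Egr1 was higher in cKO, at 39.5 and 60.6 CPM (1.54, 1.28 to 1.85), as were Fosb, at 14.8 and 26.7 CPM (1.80), and Jun, at 42.1 and 58.1 CPM (1.38). The 2 clusters went opposite ways for Jun, with a ratio of 1.92 (1.54 to 2.40) in cluster 5 but 0.630 (0.458 to 0.874), at 67.9 and 42.8 CPM, in cluster 17. Egr1 and Fosb were above 1 in both, with intervals that included 1 in cluster 17. For Egr1, Fosb and Jun the pooled direction is the reverse of the direction over all clusters of the class. Cluster 9, with 8 WT and 850 cKO cells, was nearest to this class but stayed unnamed. With every unnamed cluster joined to its nearest class, the log2 ratio of the sum was 0.04 in place of -0.26. Median depth in the class was 10358 UMIs in WT and 7372 in cKO, and ependymal or choroid plexus markers summed to 347.9 and 54.2 CPM; their part was not tested.

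In GABAergic neurons none of the 9 members passed 1.5-fold, with 0.145% of 13768 genes that much lower and 0.436% higher. Over the whole class Egr1 stood at 122 CPM in both libraries (1.00, 0.946 to 1.06), and Fos at 276 and 268 CPM (0.971, 0.935 to 1.01). The class mixes clusters whose shares differed between the libraries: cluster 19 held 134 WT and 353 cKO cells, and cluster 28, with Fos at 499 and 524 CPM, held 23 and 154. Within clusters Fos was lower in cKO, with intervals below 1, in clusters 2, 4, 11, 12 and 14 (ratios of 0.886, 0.684, 0.896, 0.693 and 0.687, in that order) and higher in cluster 26 (1.27, 1.12 to 1.43). Egr1 was lower in cluster 14 (0.646, 0.524 to 0.793) and higher in cluster 19 (1.41, 1.14 to 1.75). Over the class Jun was lower in cKO, at 317 and 261 CPM (0.823, 0.794 to 0.854), and so was Ier2, at 93.6 and 78.4 CPM (0.837). Fosb was higher, at 68.6 and 81.1 CPM (1.18, 1.10 to 1.27). Atf3 had the widest gap, at 3.42 and 0.821 CPM (0.240, 0.132 to 0.413), from 68 and 17 UMIs in more than 2000 cells each; with 5 CPM added it stayed under 1.5-fold. Free RNA would add 0.354 and 0.150 CPM of Atf3. In these cells the 8 microglial markers, of the class richest in Atf3, summed to 7.90 CPM in WT against 3.09 CPM in cKO, and fibroblast markers to 14.3 and 0.531 CPM; their part was not tested.

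Cluster by cluster, ratios below 1 were most frequent for Fos, Egr1 and Ier2 in glia and progenitors. Of 25 clusters with at least 50 cells in each library, the sum of the 9 genes was lower in cKO in 19, with 16 intervals below 1 and 4 above. For Egr1 the ratio was below 1 in 11 of the 12 glial and progenitor clusters (10 intervals below 1, 0 above), unnamed ones included, but in 6 of the 12 neuron clusters (1 interval below 1, 2 above). Fos was below 1 in 11 of 12 glial and progenitor clusters and in 7 of 12 neuron clusters. Ier2 was below 1 in 11 of 12 glial and progenitor clusters as well (6 intervals below 1, 0 above) and in 20 of all 25, against 19 for Fos and 18 for Egr1. Fosb was below 1 in 10 of all 25 clusters, with a median ratio of 1.09. The same counts over all genes are not given here, so these have no background. All 25 clusters compare the same 2 libraries and are not independent of each other. Whether neurons and glia differ beyond the spread between embryos was not tested.

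**Figure D4:**
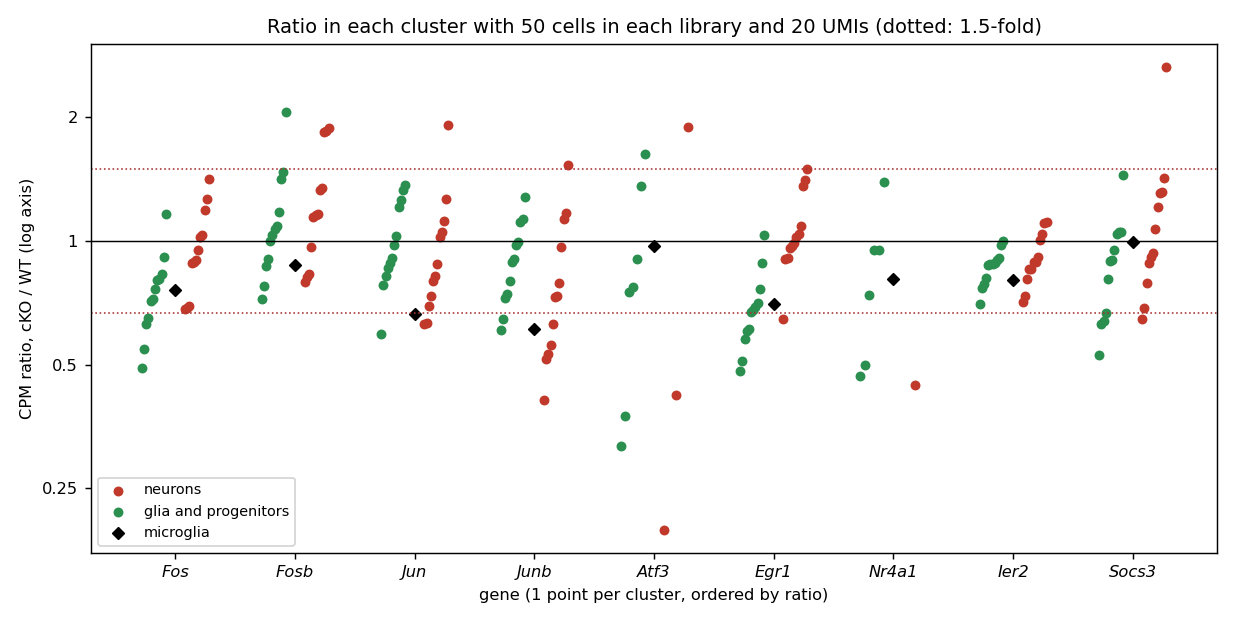
Ratio of cKO to WT (log axis) for each gene in every cluster with at least 50 cells in each library and at least 20 UMIs of the gene; green points are glial and progenitor clusters, red points neuron clusters and black diamonds the microglial cluster, and dotted lines mark 1.5-fold. For Egr1 11 of 12 green points lie below 1, whereas the red points lie on both sides. Ratios are drawn without 5 CPM added.

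The lowest ratio of the sum was that of cluster 21, an unnamed cluster of cycling cells with glial markers led by Olig1, with 251 WT and 191 cKO cells. Its 9 genes summed to 2295 CPM in WT against 1267 CPM in cKO (0.552, 0.530 to 0.575), Fos was at 971 and 476 CPM, and Egr1 at 378 and 182 CPM. Cajal-Retzius cells were at the other end: their sum was 1549 CPM in WT against 1915 CPM in cKO (1.24, 1.14 to 1.33), with Fos at 819 and 1159 CPM. They numbered 69 and 58 cells, and the summed erythroid markers in them were 17820 CPM in WT against 143 CPM in cKO, whose part was not tested.

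Relatives of the members were read from lists of related genes, for which the shares of all genes given above for each class apply. Of 16 genes of the AP-1 family and related leucine zipper genes, 13 were tested in astroglia, 1 was at least 1.5-fold lower and 0 higher, and their summed level was 1107 CPM in WT against 1045 CPM in cKO. Cebpd, a stress-responsive factor, was the one past the fold, at 38.6 and 22.6 CPM (ratio 0.586). In glutamatergic neurons 1 of 11 was past it, Fosl2, a Fos paralogue, at 23.2 and 9.05 CPM (0.389, 0.324 to 0.466). Fosl2 was also among the leading genes of cluster 15, which held 584 WT and 0 cKO cells.

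Among 7 EGR and NR4A relatives, 6 were tested in astroglia, 2 were lower and 1 higher past 1.5-fold. Egr2 was at 7.26 CPM in WT against 2.61 CPM in cKO (0.360) and Egr3 at 10.4 and 5.12 CPM (0.495), both zinc finger paralogues of Egr1. Without the Fgf17 cluster both intervals reached 1, at ratios of 0.694 and 0.664. Nr4a2, a paralogue of Nr4a1, was on the other side, with intervals above 1 in astroglia (15.9 and 26.9 CPM, 1.69), in cycling progenitors (21.4 and 37.7 CPM, 1.76), in intermediate progenitors (8.04 and 12.8 CPM, 1.59) and in glutamatergic neurons (19.6 and 31.4 CPM, 1.60), of which the first 2 passed 1.5-fold with 5 CPM added. In glutamatergic neurons Nr4a3 was lower, at 80.0 and 34.5 CPM (0.432), while the unnamed cluster 9 had Nr4a3 among its leading genes.

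In astroglia, other fast-response genes and feedback inhibitors were also weighted by the Fgf17 cluster. Of 30 fast-response genes tested in astroglia 2 were lower past 1.5-fold and 0 higher, and of 19 feedback inhibitors 1 was lower and 0 higher. Ier3, a survival gene induced by stress, was at 20.6 and 9.57 CPM (0.464) and Klf2, a zinc finger factor, at 47.4 and 24.9 CPM (0.524). Spry1, an inhibitor of FGF receptor signalling, was at 90.5 and 38.1 CPM (0.421, 0.375 to 0.472). Without the Fgf17 cluster Ier3 was at a ratio of 0.812 with an interval that included 1, Klf2 was under 1.5-fold at 0.723 (27.1 and 19.6 CPM), and Spry1 was at 0.539 (0.456 to 0.636), at 43.4 and 23.4 CPM. Past the fold in glutamatergic neurons were 2 lower and 2 higher of 29 fast-response genes, and 4 lower and 0 higher of 21 feedback inhibitors. Among them, Dusp5 was at 21.8 and 7.39 CPM (0.339) and Ier5l at 42.2 and 70.8 CPM (1.68). The libraries hardly shared clusters in that class. Intermediate progenitors had 2 of 26 and 1 of 18 lower and 0 higher. In cycling progenitors 0 of 30 and 0 of 19 passed, and in GABAergic neurons 0 of 29 and 0 of 21.

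Heat shock and chaperone genes are a second group that responds to stress. Their summed level was close to equal in all 5 classes, with ratios of cKO to WT of 0.994 in astroglia, 0.991 in cycling progenitors, 0.989 in intermediate progenitors, 0.964 in glutamatergic neurons and 0.979 in GABAergic neurons. In astroglia 3 of 24 were lower past 1.5-fold, among them the small heat shock genes Hspb1 (10.96 and 4.35 CPM) and Hspb8 (5.59 and 1.74 CPM). The inducible Hspa1a was at 3.63 and 0.773 CPM, a ratio of 0.213 from few UMIs. Without the Fgf17 cluster the intervals of Hspb1 (0.594, 0.327 to 1.05) and Hspb8 (0.776, 0.338 to 1.72) reached 1. The abundant Hspa8 was at 1330 and 1433 CPM. Kinases and factors upstream of the members, such as those of the MAP kinase, SRF, CREB and STAT3 routes, had none past 1.5-fold in any of the 5 classes, with 24 or 25 tested.

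Genes of the neuronal activity list, such as Npas4 and Vgf, showed no common direction. In glutamatergic neurons 3 of 16 were lower and 1 higher past 1.5-fold: Vgf, a secreted peptide precursor, was at 16.6 and 4.70 CPM (0.283) and Inhba, an activin subunit, at 4.41 and 1.26 CPM, besides Nr4a3, and Rgs2 was at 17.6 and 31.9 CPM (1.82). In GABAergic neurons 0 of 16 passed, with Vgf at 15.4 and 24.3 CPM (1.58) and Npas4 at 3.82 and 6.18 CPM (1.62) before the 5 CPM were added.

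The genes whose levels ran most like those of the members were searched over 58 points, each a cluster in 1 library with at least 50 cells, by Pearson correlation of log2(CPM + 5). The points share libraries, depth and cells of related types, so the values are a description. Atf3 ran with Gbp7 (r = 0.945), Hpgd (0.935) and Cebpb (0.934), Junb with Klf2 (0.904) and Gadd45b (0.891), Nr4a1 with Ctsh (0.916), and Egr1 with its paralogue Egr2 (0.760). The sum of the 9 genes ran with Cebpb (0.879) and Ppp1r15a (0.849), a stress-response phosphatase subunit. Without the microglial and vascular points 55 remained and the lists changed. Junb again had Klf2 first, at 0.711, and Nr4a1 had Ctsh first, at 0.757, while the first for Fos became Spcs1 (0.803), for Fosb Ccdc106 (0.905), for Jun Idi1 (0.773) and for Socs3 Spry1 (0.759).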

How the data were processed

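The deposited files held raw UMI counts per gene and barcode for 1 WT and 1 cKO library, with no filter on cells. Counting used Cell Ranger 7.1.0 per the file headers and 2.1.1 with mm10 per the submitters' processing notes; annotation, intron use and strand setting are not given in the sources used here. Barcodes were kept above a limit of 3348 UMIs in WT and 3341 in cKO, set at the 99th percentile of the 5000 largest totals divided by 10, if they held 500 genes or more and no more than 10% mitochondrial UMIs. Scrublet (scanpy 1.11.5) removed 330 and 526 doublets. Clustering used 2000 variable genes without the members and listed genes, 30 components, 15 neighbours and Leiden resolution 1 (leidenalg 0.10.2). Naming rules were adjusted after the clusters were seen. UMIs were summed per class and library with exact Poisson intervals, ratios had exact conditional binomial intervals, and shares of cells were taken after thinning to 3000 UMIs, all at 95% and for counting error only (scipy 1.17.1). Ratios were checked on simulated Poisson counts, which hold no spread between cells, clusters or embryos. All members were named in each large class; list genes were named by the interval bound farthest from 1, at most 3 per side with at least 50 UMIs; like genes were ranked by Pearson correlation. Members and lists were chosen with earlier results of these data known. With 1 library per genotype there was no test.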

Additional observations from a re-analysis of the deposited data

Results flagged for a closer look

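For 3 genes, 2 clusters lay on opposite sides of 1 in the comparison of the libraries. Both were at least 1.5-fold from 1, with intervals that did not include 1. These ratios were taken without the 5 CPM that the counts of members past 1.5-fold add. Jun had a ratio of cKO to WT of 1.92 in the glutamatergic cluster 5 (35.0 and 67.2 CPM) and of 0.593 in the unnamed cluster 21 led by Olig1 (522 and 310 CPM). Atf3 had a ratio of 1.89 in cluster 27, an unnamed neuronal cluster led by Gng8 (19.3 and 36.5 CPM), and of 0.317 in cluster 21 (45.5 and 14.4 CPM). Socs3 had a ratio of 2.65 in the glutamatergic cluster 17 (8.91 and 23.6 CPM) and of 0.637 in the astroglial cluster 13 (19.59 and 12.47 CPM). The clusters named are those whose interval lay farthest from 1 on each side. The share of all genes with such a pair of clusters is not given here, so the count of 3 has no background. The difference between the clusters was not tested, since each is 1 library against 1.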

How the results depend on the processing

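The sum of the 9 genes had a log2 ratio of -0.49 in astroglia, 0.05 in cycling progenitors, -0.40 in intermediate progenitors, -0.26 in glutamatergic neurons and -0.12 in GABAergic neurons. Astroglia, intermediate progenitors and GABAergic neurons stayed below 0 in all alternatives run. Clustered with the members and listed genes, the first 3 classes gave -0.54, -0.02 and -0.33. At resolution 0.5 astroglia gave -0.41, intermediate progenitors -0.31, glutamatergic neurons 0.03 and GABAergic neurons -0.15, and at resolution 2 the first 3 of these gave -0.27, -0.31 and -0.17. With the UMI minimum doubled astroglia, cycling progenitors and glutamatergic neurons gave -0.53, 0.00 and 0.07, with doublets kept astroglia gave -0.53, and with a mitochondrial limit of 5% intermediate progenitors and glutamatergic neurons gave -0.51 and -0.34. Shared clusters weighted equally gave -0.28 in astroglia, -0.08 in cycling progenitors and -0.03 in glutamatergic neurons. UMIs capped at 3 per cell gave -0.16 in astroglia, -0.18 in intermediate progenitors, -0.00 in glutamatergic neurons and -0.06 in GABAergic neurons. Cells averaged gave 0.08, -0.19 and -0.15, and cells thinned to 3000 UMIs gave 0.08, -0.18 and -0.15, in cycling progenitors, glutamatergic neurons and GABAergic neurons. Unnamed clusters joined to the nearest class gave -0.15 in cycling progenitors and 0.04 in glutamatergic neurons. Chosen after seeing the data, astroglia without the Fgf17 cluster gave -0.28 and glutamatergic clusters with 50 cells in each library 0.04. At the lower fold threshold tried, 8 members were lower in astroglia in place of 2. At that threshold 1 was lower and 1 higher in cycling progenitors, in place of 0. Likewise 3 were lower in glutamatergic neurons and 1 in GABAergic neurons, in place of 0. The share of all genes past that lower threshold is not given here, so its counts have no background. With the main threshold and a pseudocount of 1 CPM, GABAergic neurons also had 1 lower member. Without the Fgf17 cluster 1 was lower in astroglia, and 1, Fosb, was higher in the shared glutamatergic clusters. The cause of these shifts was not tested. No paired analysis was possible because each genotype has 1 library. Depth limits Atf3 and Nr4a1 in intermediate progenitors, with 8 and 7 UMIs in WT and 3 and 5 in cKO, and all classes of fewer than 100 cells.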
